A study of Mus musculus with 4 samples.

Results

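The interferon-inducible p200 family was followed through 6 genes, Ifi202b, Ifi203, Ifi204, Ifi205, Mndal and Aim2, among 18193 mouse genes with a probe set that named them alone. They were taken by symbol from the array's gene annotation. The family was chosen by its log2 differences between the groups in an earlier analysis of these arrays, so its members' own differences between the groups are a description: no p-value is given for them, and where limma's calls of members are counted, nothing is read from the count. RNA came from the thymic lymphoma line T29, which the series calls Ikaros-deficient, on 4 Affymetrix arrays. All 4 samples had been transduced with MigR1-MLER, and the series describes its tool as an inducible dominant-negative Mastermind, used to find genes regulated by Notch. Cells of 2 samples had received 100 nM 4OHT, the active tamoxifen metabolite, and cells of 2 samples had received ethanol, its solvent, each for 24 h. Mastermind completes the activating complex that Notch forms on its target genes. Since every sample carried the construct, an effect of 4OHT itself and an effect of the induced protein cannot be told apart. All cells were of 1 line, and separate cultures are not stated for the replicates, so p-values measure the spread between these arrays, part or all of which may be technical.

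Proteins of the p200 family, also called the PYHIN family, share a HIN domain that binds DNA, and most of them also have a pyrin domain through which they meet partner proteins. Interferons induce their genes, which lie side by side in 1 cluster. The family is best known from macrophages, where AIM2 senses DNA in the cytosol and assembles an inflammasome with the adaptor ASC, and from lupus-prone mouse strains, where Ifi202b is a candidate gene. Several members, p202 and p204 among them, bind regulators of the cell cycle and slow growth when they are overproduced.

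With 4OHT, 2 of the 3 members bright enough to be tested were lower. Ifi202b, which encodes the pyrin-free inhibitor p202, was 6.23-fold lower, and Mndal, which encodes a nuclear growth-inhibitory family member, was 2.24-fold lower. All 6 probe sets that the annotation assigned to a member together with other genes or loci were lower too, with log2 differences from -2.90 to -0.97. The probe set naming Ifi203 alone was nearly level, Ifi204 was dim and lower, and Aim2 was at the bottom of the array's range in every sample. Of 29 tested type I interferon-stimulated genes outside the family, 5 were higher and none was lower, where 3.9% of all genes tested were higher and 3.57% lower.

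Sequences at the annotated gene starts show that some genes of the cluster are closely related. Many hold letters that match the element through which type I interferon acts. The interferon-stimulated response element was searched as GAAANNGAAA on both strands of RefSeq promoter windows (assembly GRCm38.p6), which run from 250 bases before to 50 bases after each start. In the lines that follow, the element is in capitals with 15 bases on either side, 5′ to 3′ on the strand of the gene, all on chromosome 1. They are shown because a match recurs in genes of the cluster that share a probe set and in genes that read as dim.
Mndal: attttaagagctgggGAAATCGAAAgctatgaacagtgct
Ifi203: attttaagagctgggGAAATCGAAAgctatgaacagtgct
Ifi205: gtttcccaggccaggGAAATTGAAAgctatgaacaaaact
Ifi211: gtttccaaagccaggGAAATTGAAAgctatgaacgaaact
Ifi207: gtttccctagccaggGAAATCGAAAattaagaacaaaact
Ifi206: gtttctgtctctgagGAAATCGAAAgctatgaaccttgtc
Ifi208: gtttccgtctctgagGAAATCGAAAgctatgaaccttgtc
Ifi213: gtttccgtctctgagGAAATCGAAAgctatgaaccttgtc
Ifi214: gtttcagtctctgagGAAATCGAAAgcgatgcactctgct
The core GAAATCGAAA was present in 7 of these genes, Mndal and Ifi203 among them, and the related core GAAATTGAAA in Ifi205 and Ifi211. Over all 32851 windows, 3.44% held a match to the search pattern. The exact core of Mndal was in 16 windows, of which 7 belonged to genes of the cluster. The pattern was chosen after the windows had been seen and the core was taken from Mndal, so these shares are a description. In Mndal the core lay 36 to 27 bases before the start, in Ifi203 35 to 26 bases before it, and in Ifi205 134 to 125 bases before it. The Ifi205 window also held a second match, on the opposite strand and 24 to 33 bases after the start. Ifi203 and Mndal each have a pair of annotated starts, and the core stood at 1 start of each. The other start of Mndal held an opposite-strand match of different sequence, and the other start of Ifi203 held none.

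The windows of Mndal and Ifi202b, the members called lower, are given whole. That of Mndal is chr1:173880138-173880437 on the minus strand, and its capitals mark the interferon element.
Mndal: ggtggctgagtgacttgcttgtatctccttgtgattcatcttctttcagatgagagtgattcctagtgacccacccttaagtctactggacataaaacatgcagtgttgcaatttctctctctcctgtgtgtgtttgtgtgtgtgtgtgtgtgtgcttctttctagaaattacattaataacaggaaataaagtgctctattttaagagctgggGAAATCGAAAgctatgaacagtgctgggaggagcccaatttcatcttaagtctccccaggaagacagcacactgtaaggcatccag
That of Ifi202b is chr1:173982795-173983094, also on the minus strand. Its capitals mark a match to TTCNNNGAA, the palindrome bound by STAT factors, which lay 148 to 140 bases before the start.
Ifi202b: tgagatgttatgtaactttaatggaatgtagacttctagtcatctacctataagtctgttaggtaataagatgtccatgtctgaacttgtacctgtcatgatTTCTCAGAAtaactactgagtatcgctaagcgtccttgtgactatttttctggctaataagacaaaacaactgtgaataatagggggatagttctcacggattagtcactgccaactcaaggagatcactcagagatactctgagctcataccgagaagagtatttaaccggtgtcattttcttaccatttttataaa
The letters GAAANNGAAA are not in the Ifi202b window, nor in that of Aim2. The longest run shared by the windows of Mndal and Ifi203 was 139 bases, and that shared by the windows of Mndal and Ifi202b was 9 bases. TTCNNNGAA was found in 8.3% of all windows, and among members in Ifi202b alone. The core bound by RBPJ, the DNA-binding partner of Notch, was searched as TGGGAA on both strands and found in 25.6% of all windows. Of the 5 members with a window, Ifi205 held it, at 2 places, and neither overlapped an interferon element. A match is a description of these letters and not evidence of a bound site. Ifi204 had no window in the table used here.

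**Figure D1:**
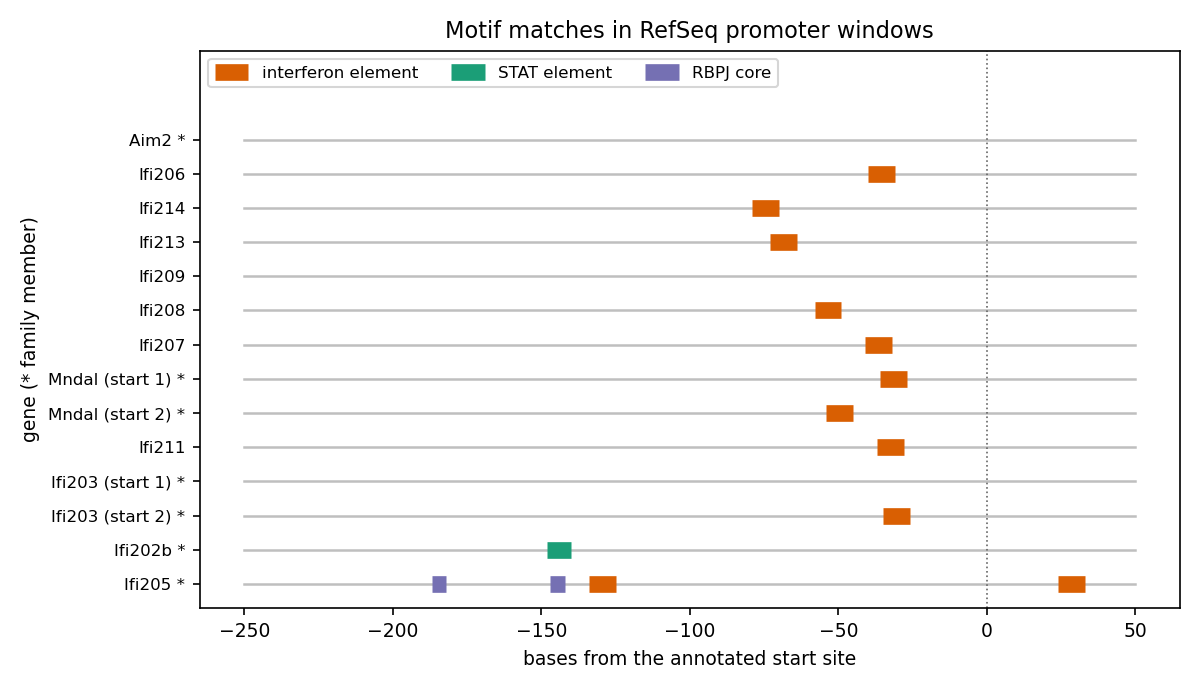
Motif matches in the promoter windows of the p200 cluster; the x axis gives bases from the annotated start site, each grey line is 1 window, and coloured bars are matches to the interferon element GAAANNGAAA, the STAT element TTCNNNGAA and the RBPJ core TGGGAA. Of 12 genes with a window, 9 held an interferon element, and in Mndal and Ifi203 it stood at nearly the same distance from the start.

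The values are log2 expression levels made by the authors with RMA, which corrects the background, equalises the arrays and summarises the probes of a set. Differences are 4OHT minus ethanol, with the standard error (SE) of limma's fit, and means have the SD over 2 arrays. Genes whose mean was under a floor of 4.81 were not tested, which left 11581. A gene was called when its limma p, adjusted by the Benjamini-Hochberg method over all genes tested, was under 0.05. The arrays read RNA of whole cultures, so fewer cells expressing a gene and less of its RNA per cell cannot be told apart.

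Of the 6 members, 5 had a probe set naming them alone and 3 of these were over the floor. Ifi204 and Aim2 were under it, and Ifi205 was read only by probe sets shared with other genes. Among the 3 tested members, 2 were called lower, Ifi202b and Mndal, and none higher. Over all genes tested, 3.57% were called lower and 3.9% higher. The members were chosen with this contrast known, so nothing is read from their count.

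Ifi202b encodes p202, which binds DNA with its HIN domains, lacks a pyrin domain and in mouse cells restrains the AIM2 inflammasome. Its level was 5.22 and 6.15 on the 4OHT arrays, against 8.32 and 8.32 on the ethanol arrays. The ethanol arrays were nearly identical and both 4OHT arrays lay far below them, while the 4OHT arrays differed from each other by 0.93. The means were 5.68 ± 0.66 with 4OHT and 8.32 ± 0.00 with ethanol (SD, n = 2 each), a difference of -2.64 ± 0.29 (SE). This was the sixth largest fall among the genes tested, a description of the gene that led to its choice. A further probe set, which names Ifi202b together with an unnamed locus, LOC100044068, read 5.47 and 5.75 with 4OHT, against 8.50 and 8.52 with ethanol. Here the 4OHT arrays stood closer together, and the difference was -2.90 ± 0.12 (SE), or 7.48-fold. The gap between the 4OHT arrays in the first probe set was thus not matched in size by the second. Without ethanol replicate 1, Ifi202b kept a difference of -2.64 but was not called, in a fit with 1 residual degree of freedom.

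Mndal encodes a nuclear protein related to human MNDA that inhibits cell growth when it is overproduced. It was the brightest member, with 8.995 and 9.10 on the 4OHT arrays, against 10.21 and 10.21 on the ethanol arrays, in its leading probe set. The groups did not overlap and were separated by far more than the spread within either. The means were 9.05 ± 0.08 with 4OHT and 10.21 ± 0.00 with ethanol (SD, n = 2 each), a difference of -1.16 ± 0.09 (SE). The leading probe set, 1452231_x_at, is marked by its suffix as open to cross-hybridisation. The other probe set of Mndal, 1426906_at, has no such mark and read 8.90 and 9.04 with 4OHT, against 10.17 and 10.22 with ethanol. The difference there was -1.22 ± 0.10 (SE), so both probe sets gave a fall of between 2.24-fold and 2.33-fold. Without 4OHT replicate 1, Mndal had a difference of -1.11 and was not called.

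Ifi203 encodes another pyrin and HIN protein, and its probe sets disagreed. The probe set that names Ifi203 alone, 1442828_at, read 5.91 and 5.88 with 4OHT, against 5.93 and 5.92 with ethanol. The arrays were almost level, with a difference of -0.04 ± 0.08 (SE), and Ifi203 was not called. The 3 other probe sets that name Ifi203 also name the pseudogene Ifi203-ps and further loci. The brightest of them, 1451567_a_at, read 9.09 and 9.15 with 4OHT, against 10.35 and 10.24 with ethanol, a difference of -1.17 ± 0.10 (SE). The next, 1448775_at, read 8.34 and 8.58 with 4OHT, against 9.72 and 9.73 with ethanol, a difference of -1.27 ± 0.12 (SE). The third, 1425008_a_at, lay just over the floor, at 4.37 and 4.40 with 4OHT and 5.13 and 5.58 with ethanol, a difference of -0.97 ± 0.16 (SE). In all 3 the 4OHT arrays lay below the ethanol arrays. Which of the named loci gave this signal cannot be told from these values.

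Ifi204 encodes p204, a pyrin and HIN protein that binds the retinoblastoma protein and takes part in muscle and bone differentiation in mouse cells. Its probe set read 3.41 and 3.14 with 4OHT, against 4.22 and 4.30 with ethanol. The groups did not overlap and differed by -0.99, but all 4 values were under the floor, where a fold can be understated, and Ifi204 was not tested. Ifi205 encodes a further pyrin and HIN protein and is read by a pair of shared probe sets. The set naming Ifi211 and Ifi205 read 5.82 and 6.01 with 4OHT, against 7.0 and 6.98 with ethanol, a difference of -1.08 ± 0.11 (SE). The set naming Mndal, Ifi211, Ifi205 and Ifi204 read 7.09 and 7.22 with 4OHT, against 8.42 and 8.34 with ethanol, a difference of -1.23 ± 0.10 (SE). Both sets had the 4OHT arrays below the ethanol arrays by about the amount seen for Mndal, which the second of them also names.

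Aim2 encodes the cytosolic DNA sensor that recruits ASC through its pyrin domain. It read 2.72 and 2.71 with 4OHT, against 2.77 and 2.63 with ethanol. These were among the lowest values on the arrays, the groups overlapped, and the difference was 0.01. A fall in Aim2, or a small rise, would not have been detectable at this signal, and a larger rise was not seen. RMA gives no call of whether the gene was expressed.

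**Figure D2:**
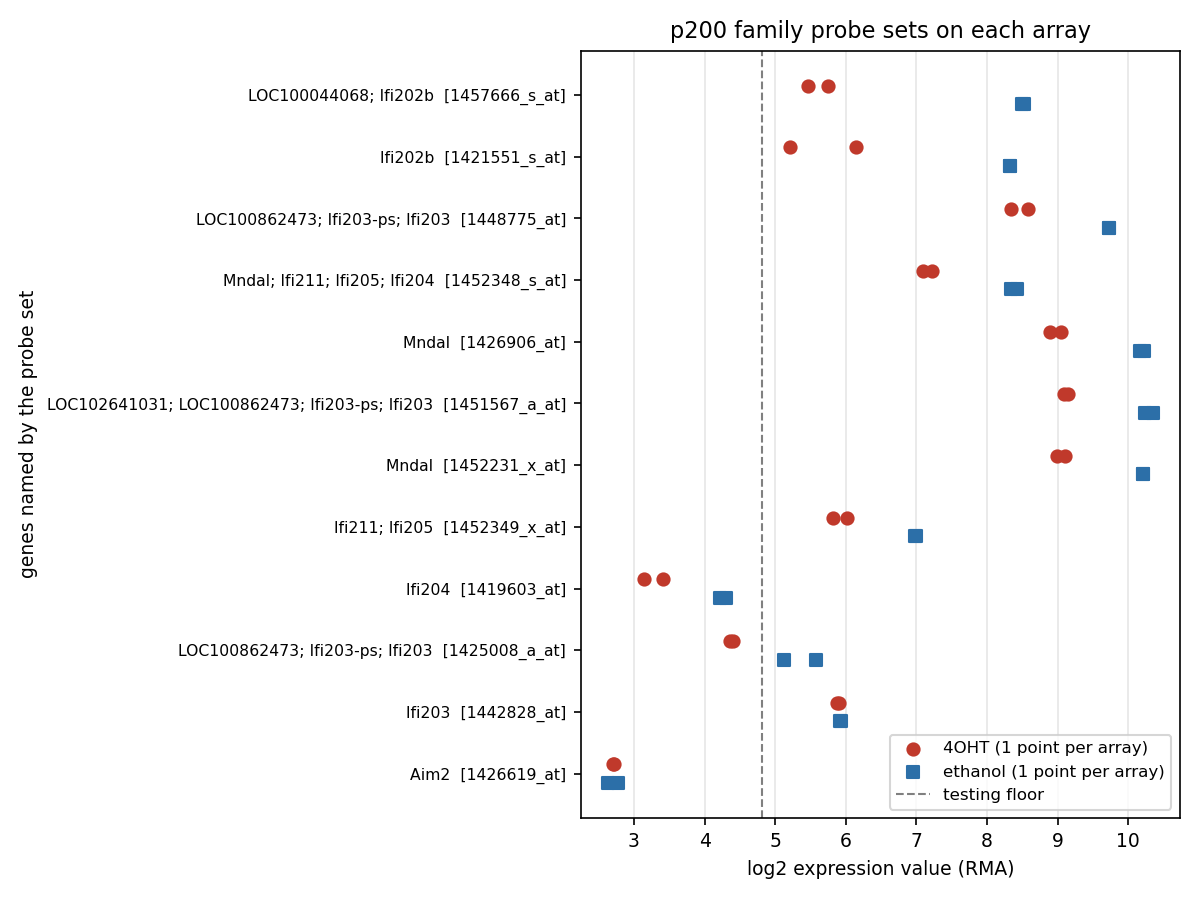
Log2 level (x axis) of the 12 probe sets that name a p200 family member (rows, with all genes each names), 1 red circle per 4OHT array and 1 blue square per ethanol array; the dashed line is the testing floor of 4.81. The 4OHT arrays lie below the ethanol arrays in all rows but that of Aim2, and the row of Ifi203 alone is nearly level.

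The family was chosen by its differences between the groups, so nothing is read from the counts that follow over its 12 probe sets. In 11 of them both 4OHT arrays were below both ethanol arrays, where this held for 27% of all named probe sets. When every probe set naming 1 or several genes was fitted, an alternative added after seeing the data, 10 of the 12 were over the floor and 9 were called lower, all but that of Ifi203 alone. In that fit 1.6% of 21556 probe sets were called lower. Several of these probe sets name the same genes, so they are not independent readings of separate genes. Their probe sequences were not compared. In all 9 the value on 4OHT replicate 1 was below that on 4OHT replicate 2, by 0.03 to 0.93, as in 60% of the 345 probe sets called lower in that fit. With 4OHT replicate 2 alone set against the ethanol mean, their differences ran from -2.76 to -0.96, and with 4OHT replicate 1 alone from -3.10 to -0.99.

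The cluster on chromosome 1 spans 19 annotated genes from Aim2 to Ifi205 in the RefSeq order, of which 13 code for proteins. Only 8 of these had a probe set naming them alone, 5 members and 3 others. The others were PYHIN genes and dim. Ifi209 read 4.05 and 4.58 with 4OHT, against 4.25 and 4.77 with ethanol. Ifi213 read 3.86 and 3.93 with 4OHT, against 3.92 and 3.91 with ethanol, and Ifi207 2.60 and 2.56 with 4OHT, against 2.76 and 2.48 with ethanol. All 3 were under the floor with overlapping groups. Among genes read on their own, those well below their ethanol level were Ifi204, Mndal and Ifi202b. Of the nearest tested genes outside the cluster, those on the side of Aim2 were not called: Cadm3, a cell adhesion gene, differed by -0.10, Ackr1, an atypical chemokine receptor gene, by 0.06, and Apcs, which encodes serum amyloid P, by 0.15 (limma adjusted p = 0.533, 0.841 and 0.571). On the side of Ifi205, Fh1, fumarase, differed by -0.23 and Chml, a Rab escort protein gene, by -0.24 (limma adjusted p = 0.204 and 0.249). Opn3, an opsin gene between these 2 and separated from Ifi205 by 29 annotated genes, was lower, with a difference of -0.78 ± 0.12 (SE, limma adjusted p = 0.0267), and was not called when any 1 array was left out.

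**Figure D3:**
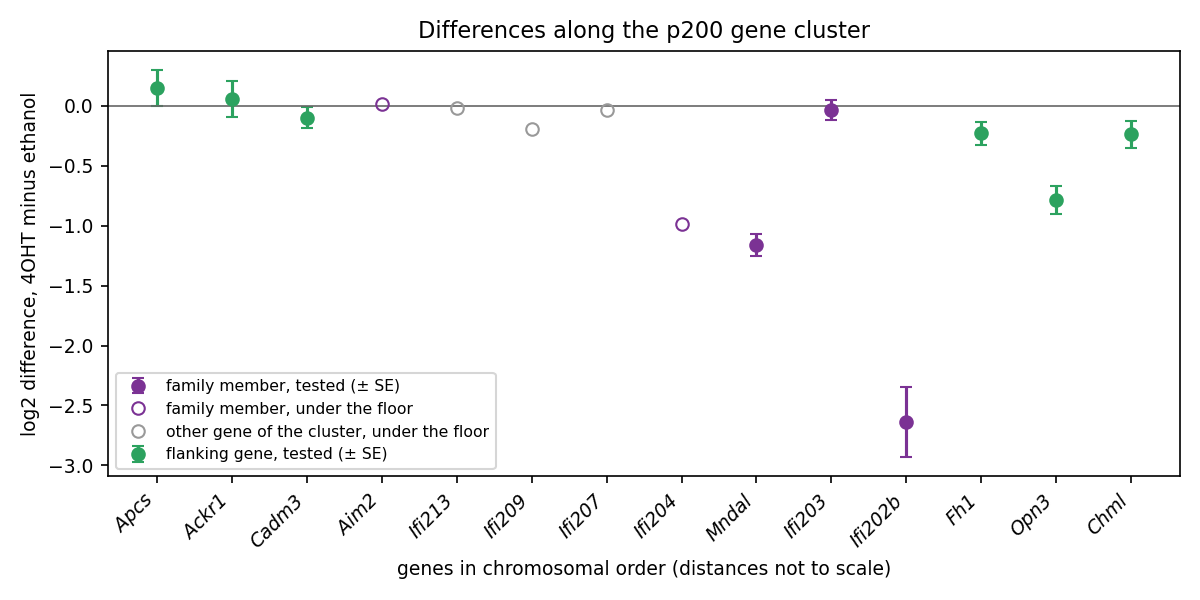
Log2 difference, 4OHT minus ethanol (y axis), of genes with a probe set of their own in chromosomal order (x axis, distances not to scale), with limma's SE where tested; open circles are under the floor. Ifi202b at -2.64, Mndal at -1.16 and Ifi204 at -0.99 lie together at 1 end of the cluster genes drawn. Ifi203, at -0.04, is among them. Ifi205, the last gene of the cluster on that side, has no probe set of its own and is not drawn. Aim2, Ifi213, Ifi209 and Ifi207, towards the other end, are under the floor, where a fall can be hidden. Brighter probe sets that name Ifi203 with other loci, not drawn here, differed by -1.17 and -1.27.

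The genes with patterns most like those of the members were found by the Euclidean distance between log2 values, each centred on its own mean, over the 4 arrays. Nearest to Ifi202b was 2300002M23Rik, at a distance of 0.14, with 6.58 and 7.33 on the 4OHT arrays, against 9.64 and 9.65 on the ethanol arrays. It shared the closeness of the ethanol arrays and the gap between the 4OHT arrays, which was smaller in the further Ifi202b probe set. The next were Spsb4, a SOCS-box protein gene, at 0.39, and Il2ra, the interleukin-2 receptor alpha chain, at 0.68. Nearest to Mndal were Shb, an SH2-domain adaptor gene, at 0.08, Dennd2d at 0.13 and Itga9, integrin alpha 9, at 0.14. For Ifi203 the nearest were Romo1, Commd2 and Rpa2, all level across the arrays, with distances of 0.01 each. Many genes follow a contrast of 2 against 2 arrays, so these distances describe the arrays and say nothing of a shared control.

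**Figure D4:**
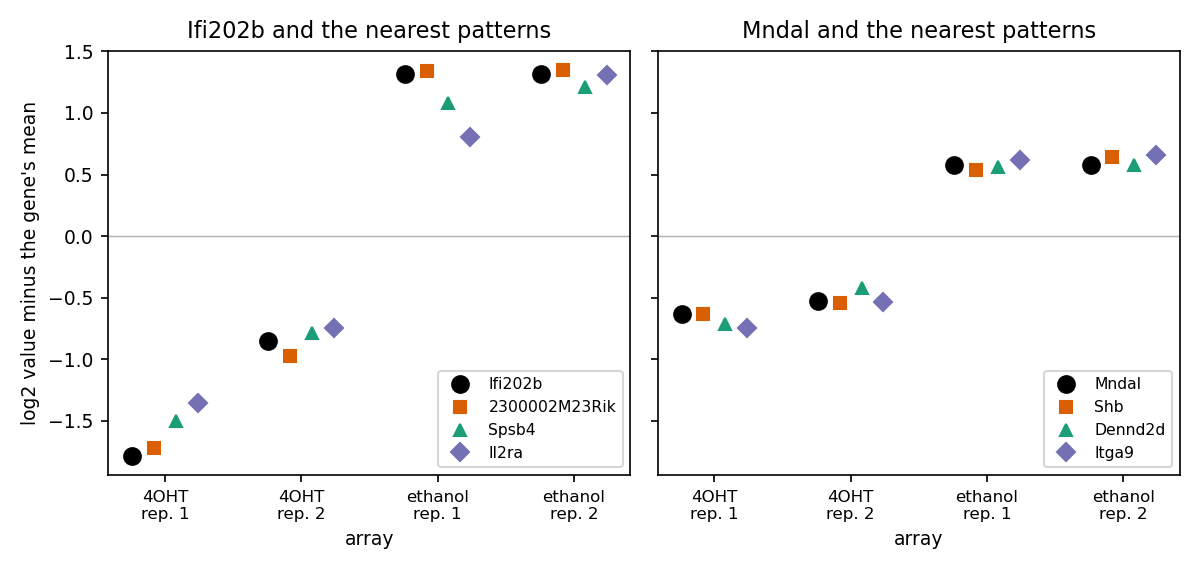
Log2 value minus the gene's own mean (y axis) on each array (x axis) for Ifi202b (left) and Mndal (right) with the 3 genes of nearest pattern. Ifi202b, in its leading probe set, and 2300002M23Rik nearly coincide on all arrays, including the gap between the 4OHT arrays. That gap was smaller in the further Ifi202b probe set.

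All 6 Notch target genes listed were called lower with 4OHT, where 3.57% of all genes tested were. The list was chosen with earlier results of these data known, so this is a description and cannot check the treatment. Dtx1, a ubiquitin ligase gene, was the strongest, with 6.01 and 6.01 on the 4OHT arrays, against 9.41 and 9.43 on the ethanol arrays (-3.41 ± 0.08 SE, limma adjusted p = 0.000506). Ptcra, the pre-T-cell receptor alpha chain, differed by -2.23, Il2ra by -2.11, Notch3 by -1.68, Nrarp, a Notch feedback inhibitor, by -1.44, and the repressor gene Hes1 by -1.39 (limma adjusted p from 0.00221 to 0.0229). The number called was 5 without ethanol replicate 1, 6 without ethanol replicate 2, 2 without 4OHT replicate 1 and 3 without 4OHT replicate 2. The difference of Ifi202b was thus between those of Dtx1 and Ptcra, and that of Mndal was smaller than that of Hes1.

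Most of the interferon response genes called outside the family were higher. Of 44 type I interferon-stimulated genes with a probe set, 29 were tested, 5 were called higher and none lower, with a median difference of 0.08, against -0.01 over all genes tested, of which 3.9% were higher and 3.57% lower. Mx1, an antiviral GTPase gene, read 7.55 and 7.34 with 4OHT, against 5.97 and 6.26 with ethanol (1.33 ± 0.14 SE, limma adjusted p = 0.0124). Usp18, which removes the ubiquitin-like ISG15, read 9.23 and 9.04 with 4OHT, against 7.98 and 7.77 with ethanol (1.26 ± 0.12 SE, limma adjusted p = 0.0109). Sp100, a nuclear body gene, rose by 0.96 and Lgals9, galectin 9, by 0.64 (limma adjusted p = 0.044 and 0.0266). The fifth, the antiviral GTPase gene Mx2, rose by 0.58 (limma adjusted p = 0.0292) and was singled out with its value in view. In the remaining 24 the difference did not pass, and 16 of the 29 tested had a positive difference. Classical members such as Ifit1, Oas3 and Dhx58 were under the floor. Others were tested and not called, such as Ifit2 (-0.08), Oas1a (-0.08) and Rsad2 (-0.17), which were named with their values in view. The number of higher members was 2 without ethanol replicate 1, 3 without ethanol replicate 2 and 0 without either 4OHT array.

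None of 14 tested type II interferon-stimulated genes was called in limma. Of the 14, 11 had a positive difference, and the median was 0.25, against -0.01 over all genes tested. Their brightest members, Psmb8, an immunoproteasome subunit, and Tap2, a peptide transporter subunit, differed by -0.11 and 0.23 (limma adjusted p = 0.6 and 0.234). Of 13 tested genes of the interferon receptors and their signalling, 2 were higher and 1 lower, with a median of 0.22. Ifngr1, a chain of the interferon gamma receptor, rose by 0.85 ± 0.11 (SE, limma adjusted p = 0.0202), and Ifnar1, a chain of the type I receptor, by 0.47 ± 0.10 (SE, limma adjusted p = 0.0491). Socs3, which dampens JAK signalling, fell by 0.67 on the log2 scale (limma adjusted p = 0.0217). Among 6 tested interferon regulatory factor genes, Irf8 alone was called, at 9.02 and 8.92 with 4OHT, against 8.31 and 8.42 with ethanol (0.60 ± 0.09 SE, limma adjusted p = 0.0286), and the list median was -0.03. At most 1 gene of the receptor list and none of the regulatory factor list was called when any 1 array was left out.

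Of 13 inflammasome and pyroptosis genes with a probe set, 6 were over the floor, and of 17 genes of cytosolic DNA sensing all were. Pycard, which encodes the adaptor ASC, was the 1 inflammasome gene of those 6 to be called, at 11.89 and 11.66 with 4OHT, against 11.16 and 11.10 with ethanol (0.64 ± 0.11 SE, limma adjusted p = 0.0322). The list median was 0.31, and Casp1, Nlrp3, Il1b and Il18 were under the floor, as Aim2 was. Of 17 tested genes of cytosolic DNA sensing, Zbp1, a sensor of Z-form nucleic acids that is itself interferon-inducible, rose by 0.80 ± 0.09 (SE, limma adjusted p = 0.0163), none fell, and the median was -0.07. Among 16 tested genes whose products bind p202 or p204, or that act with these, Id3, an inhibitor of E proteins, rose by 0.73 ± 0.15 (SE, limma adjusted p = 0.0469), none fell, and the median was 0.02. Neither Pycard nor Zbp1 was called when any 1 array was left out, and Id3 was called without ethanol replicate 2 only.

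**Figure D5:**
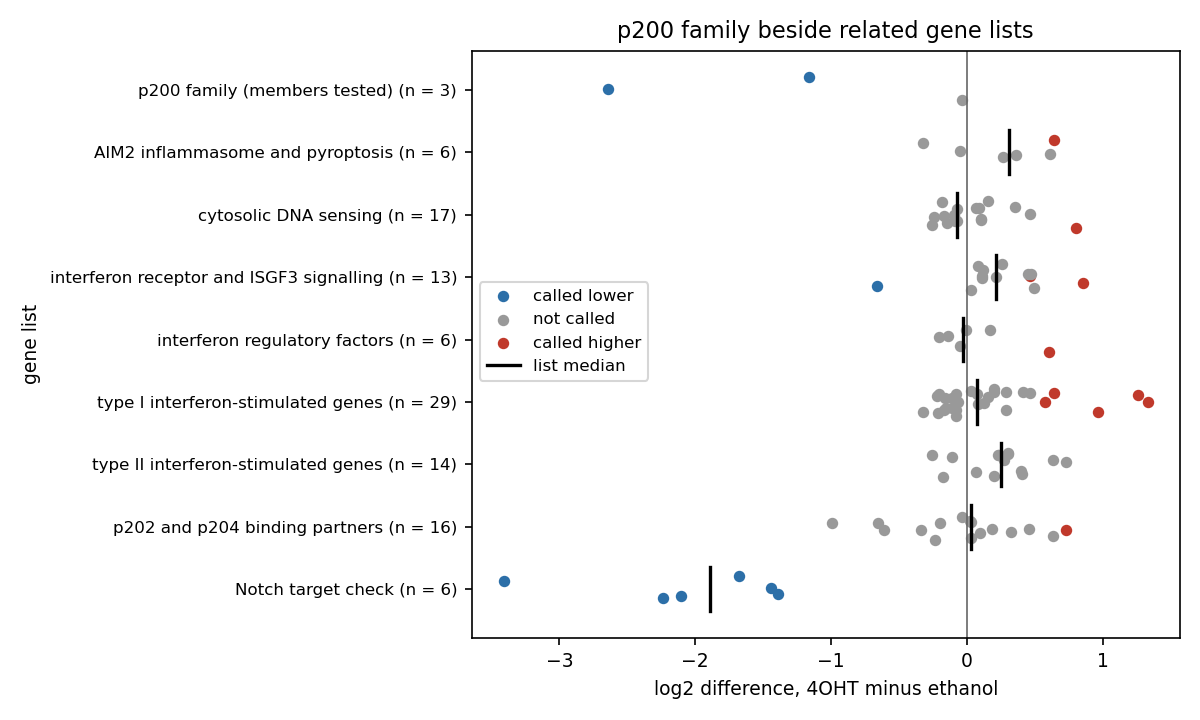
Log2 difference, 4OHT minus ethanol (x axis), of the tested genes in each list (rows), 1 point per gene, coloured by limma's call, with the list median as a black bar for all lists but the family. Ifi202b, Mndal and the Notch targets were lower with 4OHT, and the called genes of the interferon lists were higher, apart from Socs3. The family was chosen by these differences and the lists with earlier results known, and a shared cause was not tested.

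Tested genes whose promoter window held GAAANNGAAA numbered 320, of which 5% were called higher and 2.19% lower, with a median difference of -0.01. Among all 9402 tested genes with a window, 3.94% were called higher and 3.61% lower, also with a median of -0.01. Of the 9 other genes that share the exact core of Mndal, 4 were tested, Ddx58, Parp11, Pnrc1 and Serpinb6a, and none was called, with differences between -0.02 and 0.43.

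The cells and arrays were checked for what could move with these values. All 12 T-lineage markers with a probe set were over the floor, and their summed linear level was 43743 and 43836 with 4OHT, against 39688 and 42376 with ethanol. Of these, Cd8a, the CD8 alpha chain, rose by 0.83 and Cd247, the T-cell receptor zeta chain, by 0.68 (limma adjusted p = 0.0347 each), and Cd3g, the CD3 gamma chain, fell by 0.57 (limma adjusted p = 0.0356). They were named with their values in view, as was Itgam, and none of the 3 was called when any 1 array was left out. The part of these markers in the results was not tested. Of 13 monocyte, macrophage and granulocyte markers, 3 were over it, Csf1r, Cd14 and Fcgr1, none was called, and Lyz2, Itgam, Adgre1, Mpo and Tyrobp were among the 10 under it. Itgam, the integrin CD11b chain, read 4.83 and 4.79 with 4OHT, against 4.10 and 3.96 with ethanol, so its groups did not overlap. The summed linear level of the 13 was 337 and 331 with 4OHT, against 338 and 342 with ethanol. Of 6 dendritic-cell markers 2 were over the floor, of 6 B-cell markers 2, and of 4 NK-cell and 2 erythroid markers none. Among 8 stromal, epithelial and endothelial markers 2 were over it, and Pecam1 of these rose by 0.93 (limma adjusted p = 0.0165), a call that held only without ethanol replicate 2 among the fits leaving out 1 array. The groups differed in the 3′ minus 5′ value of the 18S ribosomal control, which was 0.90 and 0.82 with 4OHT, against 0.05 and 0.32 with ethanol, while that of Actb was 0.43 and 0.45 with 4OHT, against 0.40 and 0.49 with ethanol. The part of the 18S difference in the results was not tested.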

How the data were processed

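The deposited table holds log2 expression values of 45101 probe sets on 4 arrays, which the authors computed with RMA (its version not given in the sources used here), per the submitters' processing notes. That they are log2 was read from their range, 2.25 to 14.6. RMA gives no detection call, and the number of arrays limits the precision. The array annotation named 1 gene for 34945 probe sets and several for 932. Each gene was represented by its probe set of highest mean over the 4 arrays, and genes under the 40th percentile of those 34945 means were not tested. 4OHT was tested against ethanol in R 4.3.3 by limma 3.58.1, with lmFit and eBayes and neither trend nor block. The fit and the motif search were tested on simulated data. Member symbols matched RefSeq by gene number. No coordinates come from the deposited file; those printed are RefSeq's.

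The members, the gene lists and the alternatives were chosen with earlier results of these data known. Lists came from textbook knowledge, and the motifs were chosen after the promoter windows had been seen. The genes named are the members, all other PYHIN genes, up to 4 called genes per list by size or else the 2 brightest, the 3 nearest tested genes on either side of the cluster, and the 3 nearest in pattern. Alternatives were other filters, normalizations, probe set choices, a robust prior, a replicate block and each array left out.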

Additional observations from a re-analysis of the deposited data

How the results depend on the processing

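Ifi202b stayed between -3.10 and -2.17 and Mndal between -1.22 and -1.11 under every alternative that gave them a value. Both differences were negative in each, but neither gene was called in all of them. Ifi203 alone stayed between -0.10 and -0.02 and was never called. The counts moved more. Without probe sets ending in _x_at, _s_at or _a_at, 269 genes and 1 member were called lower, since the probe set naming Ifi202b alone is of that kind. With an intensity trend and robust prior, 679 genes were higher and 666 lower. Leaving out 1 array gave 9 to 125 higher and 12 to 66 lower genes and 1 to 2 members lower, in fits with 1 residual degree of freedom. Samples share replicate numbers but nothing says that a number marks a shared culture. Deviations of same-numbered arrays correlated at 0.34 across genes, and with the replicate number as a block 1104 genes were higher and 1031 lower, with no change in the members called. Array number and signal over background limit Ifi204 and Aim2, which were tested only with no filter. There, Ifi204 differed by -0.99 and was called lower, which gave 3 members. Over all alternatives, higher calls ran from 0 to 7 in the type I interferon-stimulated list (5 as reported), 0 to 5 in the receptor list (2), 0 to 4 in the type II list (0), 0 to 3 in the inflammasome list (1) and in the p202 and p204 partner list (1), and 0 to 2 in DNA sensing (1). Lower calls reached 1 in the type I list and 3 in the partner list (0 as reported in each), and ran from 2 to 6 for the Notch targets (6).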

Other observations

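Fos and Jun, immediate early genes whose products bind p202 and which were named after their values were seen, differed more between replicate numbers than between groups. Fos read 5.38 and 7.53 on 4OHT replicates 1 and 2, against 6.13 and 8.76 on ethanol replicates 1 and 2. Jun read 5.42 and 7.97 with 4OHT, against 5.81 and 8.79 with ethanol. In both genes replicate 1 was the lower array of each group by more than 2 on the log2 scale, and neither was called (limma adjusted p = 0.59 and 0.788).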
